A study of Mus musculus with 4 samples.

Results

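Cycling B cells of the mouse peritoneal cavity were picked out as cell barcodes that carried both an assembled B-cell receptor and the transcripts of dividing cells. A barcode was kept when it appeared in the receptor contig table and in the expression matrix of its library, with 300 or more genes and at most 10% of its unique molecular identifiers (UMIs, each standing for 1 captured transcript) on mitochondrial genes. It further needed 3 or more UMIs of Cd79a and Cd79b together, at most 1 UMI of the macrophage genes Adgre1, Prg4 and Alox15, and 3 or more UMIs summed over Mki67, Top2a, Birc5, Cdk1, Ccnb2 and Rrm2. This left 62 cycling B barcodes, of 9120 in the same B gate and of 20124 barcodes in both matrices. They were 33 of 6208 gated barcodes in the chow diet (CD) library and 29 of 2912 in the high-fat diet (HFD) library. The 8741 gated barcodes without a UMI of the 6 genes, 6029 in CD and 2712 in HFD, served as the reference B barcodes.

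The cells came from wild-type mice fed chow or a high-fat diet from 4 weeks of age for 3 months, per the series design. The treatment text of the samples instead names high-fat feeding for CD and HFD alike, and the groups here follow the sample titles. Peritoneal lavage with serum-free RPMI medium was followed by flow sorting of cells with the leukocyte surface protein CD45. Each diet is represented by 1 expression library and 1 B-cell receptor library, and the labels do not give how many mice a library pools or their sex. No difference between the diets, or between cycling and reference barcodes, therefore has a replicate check, no p-value is given, and all intervals (95%) cover counting error only.

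The peritoneal cavity is a main home of B-1 cells, which renew themselves by division in the tissue, carry restricted and often self-reactive IgM receptors, and release natural antibody. Part of them bind phosphatidylcholine, a membrane lipid, through the pairs IGHV11-2 with IGKV14-126 and IGHV12-3 with IGKV4-91. B-2 cells, the recirculating follicular type, also enter the cavity and divide mainly after meeting antigen with T cell help. A dividing cell copies its DNA in S phase with replication and histone genes, and separates its chromosomes in mitosis with spindle, kinetochore and condensin genes.

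The receptors of the cycling barcodes are shown first because they were sequenced in separate libraries and played no part in the choice of the 6 cycle genes. A clone is a set of barcodes of a library with 1 heavy and 1 light contig that share both V genes, both J genes and both junction (CDR3) nucleotide sequences. In CD, 2 clones had 3 or more cycling barcodes. Their junctions follow, as the contig table gives them, 5′ to 3′, with the first and the last codon in capitals.
CD clone IGHV2-2/IGKV8-24, heavy: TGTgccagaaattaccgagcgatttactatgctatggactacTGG
CD clone IGHV2-2/IGKV8-24, light: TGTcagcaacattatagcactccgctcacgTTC
CD clone IGHV12-3/IGKV4-57-1, heavy: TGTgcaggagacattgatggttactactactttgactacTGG
CD clone IGHV12-3/IGKV4-57-1, light: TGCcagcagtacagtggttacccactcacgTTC

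In HFD the most frequent pair among cycling barcodes was IGHV11-2/IGKV14-126, in 3 clones. Their heavy junctions are 39 bases long and are printed with the 5 positions at which they are not all alike in capitals. The light junction was the same in all 3, and its first and last codon are in capitals.
HFD clone of 57 barcodes, 2 cycling, heavy: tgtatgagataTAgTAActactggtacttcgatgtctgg
HFD clone of 3 barcodes, 2 cycling, heavy: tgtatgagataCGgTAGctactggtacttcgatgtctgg
HFD clone of 7 barcodes, 1 cycling, heavy: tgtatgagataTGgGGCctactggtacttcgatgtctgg
Light junction of all 3: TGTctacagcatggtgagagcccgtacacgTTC

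Another 3 clones consisted of 2 barcodes that were both cycling; they are shown, chosen after their values were seen, because no reference barcode carried their receptor. The first and the last codon are again in capitals.
CD clone IGHV1-64/IGKV4-59, heavy: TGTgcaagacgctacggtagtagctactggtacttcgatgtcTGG
CD clone IGHV1-82/IGLV1, heavy: TGTgcaagattatggggggactacTGG
HFD clone IGHV5-12/IGKV1-117, heavy: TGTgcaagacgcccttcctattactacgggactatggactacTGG

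How common were cycling B cells under each diet? Cycling barcodes made up 0.532% (0.366 to 0.746) of the CD gate and 0.996% (0.668 to 1.43) of the HFD gate. The difference of 0.464 percentage points had an interval of 0.0945 to 0.921, which lay above 0, between 1 library of each diet. HFD barcodes were deeper, with a median of 5795 UMIs against 4494 among reference barcodes, and a deeper barcode reaches 3 UMIs of the cycle genes more readily. After each barcode was thinned to 3000 UMIs, which left out 1351 CD and 301 HFD gated barcodes below that depth (1 and 0 of them cycling), the shares were 0.395% in CD and 0.763% in HFD. The gate was applied again to the thinned counts and then held 5065 CD and 3014 HFD barcodes, 20 and 23 of them cycling. Barcodes over the macrophage limit at full depth could enter it, so depth was not the only change. Without the 2 CD clones of 3 or more cycling barcodes, an alternative chosen after seeing the data, the CD share was 0.355%.

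The values on both sides of the threshold describe the rule. Barcodes with 1 UMI of the 6 genes numbered 137 in CD and 158 in HFD, those with 2 UMIs 9 and 13, those with 3 UMIs 3 and 0, and those with 4 UMIs 4 and 2. Cycling barcodes held 9 UMIs of the 6 genes at the median in CD (3 to 59) and 15 in HFD (4 to 115). Top2a, the topoisomerase that untangles replicated DNA, was found in 30 of 33 CD and 24 of 29 HFD barcodes, and Mki67, which coats mitotic chromosomes, in 25 and 27. Birc5, a subunit of the chromosomal passenger complex, was found in 20 and 22, the mitotic kinase Cdk1 in 19 and 20, its cyclin partner Ccnb2 in 20 and 18, and the ribonucleotide reductase subunit Rrm2 in 23 and 22. Outside the gate, cycling barcodes with a B-cell contig but 2 or more macrophage UMIs numbered 8 in CD and 16 in HFD, and cycling barcodes with B-cell UMIs but no contig 12 and 8.

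The B cell label was checked on Ms4a1 (CD20), which played no part in the rule and was present in 32 of 33 CD and 29 of 29 HFD cycling barcodes. Cd79a, a signalling chain of the receptor, was present in 33 and 29, which follows nearly from the rule and supports nothing. Jchain, which joins secreted IgM, was found in 0 and 1 barcodes, and of the 5 plasma cell markers Sdc1 and Tnfrsf17 were at 0 in both libraries. Tnfrsf17 was also at 0 in the CD reference. The 9 germinal centre markers summed to 18 UMIs in CD and 18 in HFD, with Gcsam and Nuggc at 0 in both. Per 1e+06 UMIs these sums were 46.7 against 34.6 in the CD reference and 39.2 against 36.5 in the HFD reference. Of the 4 markers measured in both libraries, 3 were above the reference in both.

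Cycling barcodes were larger libraries than the other B barcodes. They held 10341 UMIs at the median in CD (2631 to 26418) and 15369 in HFD (5423 to 40745), and 3022 and 3686 genes against 1607 and 1933 in the reference. Their median mitochondrial share was 3.49% in CD and 3.70% in HFD, against 4.00% and 4.04%. 1 HFD barcode (IGHV7-1/IGKV15-103) stood apart with 0.0456% mitochondrial UMIs. Of barcodes found in both matrices, 30 in number, 0 were cycling.

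Transcripts of other cell types were present in some of them. At least 1 UMI of 6 T cell genes was found in 24.2% of CD and 34.5% of HFD cycling barcodes, against 10.8% and 12.6% in the shallower reference. The 11 T cell markers summed to 325 counts per 1e+06 UMIs (CPM) in CD cycling barcodes against 89.8 in the CD reference, and to 58.8 against 66.1 in HFD; Cd8a was at 0 in both cycling sums. The 18 macrophage markers, 3 of which the rule holds low, summed to 579 CPM against 1225 in CD and to 379 against 1251 in HFD, with Gata6 and Fcgr1 at 0 in both cycling sums. 5 CD and 2 HFD barcodes had 5 or more T cell UMIs, up to 71 in CD and 7 in HFD. The NK cell markers reached 35 UMIs in a single HFD barcode. Granulocyte and mast cell and erythroid markers were at 0 in every cycling barcode.

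Did cycling B barcodes stand in DNA synthesis or in mitosis? A list of 45 replication genes and a list of 53 mitosis genes were summed in each barcode. Replication genes gave 45 UMIs at the median in CD (4 to 167) and 65 in HFD (8 to 195), and mitosis genes 26 (5 to 181) and 49 (3 to 384). Replication UMIs exceeded mitosis UMIs in 18 CD and 15 HFD barcodes, mitosis UMIs exceeded replication UMIs in 14 and 14, and 1 CD barcode had equal sums. Replication genes made up 56.4% of the 2 lists at the median in CD (19.3 to 89.7) and 51.9% in HFD (24.7 to 84.6), and 9 barcodes of each library lay between 40% and 60%. Barcodes on both sides of equal sums were therefore present in each library, and the ranges overlapped throughout. Cycle UMIs of both lists together came to 9.46 per 1000 UMIs in CD (1.25 to 17.5) and 9.68 in HFD (0.576 to 21.1) at the median. Reference barcodes summed to 808 CPM of replication and 327 of mitosis genes in CD, and to 778 and 320 in HFD. The reference itself thus lay on the replication side, so a barcode on that side need not be in S phase. The lowest HFD barcode passed the rule on 4 UMIs of Ccnb2 alone and lay below the HFD reference level of both lists together. Its replication share was 72.7%. A CD barcode with 3 UMIs of Ccnb2 alone stood at 1.25 per 1000, close to the CD reference.

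The plot of replication against mitosis UMIs shows how clones sat on this axis. The 7 barcodes of the CD clone IGHV2-2/IGKV8-24 kept close to the diagonal, with 40.2% to 60% of cycle UMIs from replication genes. The 4 cycling barcodes of IGHV12-3/IGKV4-57-1 lay on the replication side at 63.3% to 73.2%. The CD reference, with 808 CPM of replication and 327 of mitosis genes, lay on that side too. The 2 cycling barcodes of the HFD clone of 57 lay on the mitosis side at 33.7% and 40.2%, those of the clone of 3 at 41.0% and 43.0%, and the barcode of the clone of 7 on the replication side at 66.1%.

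**Figure D1:**
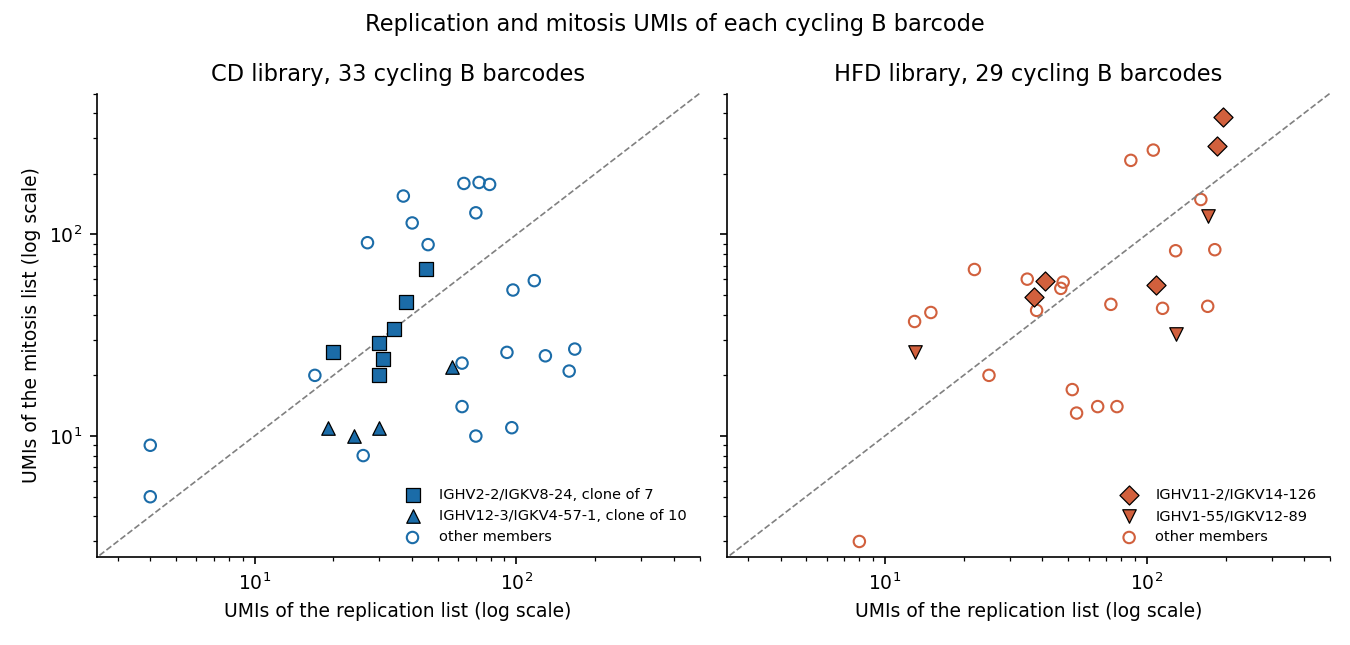
UMIs of the mitosis list (vertical, log scale) against UMIs of the replication list (horizontal, log scale) for each cycling B barcode, CD on the left (33) and HFD on the right (29); filled symbols mark the named receptors and the dashed line marks equal sums. Barcodes lie on both sides of the line in each library, 18 CD and 15 HFD below it and 14 and 14 above it.

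Which receptors did the cycling barcodes carry? A single heavy and a single light contig were found for 23 of 33 CD and 19 of 29 HFD cycling barcodes, and for 4547 and 2132 reference barcodes; shares of V pairs and clones are over these. All cycling barcodes with a called heavy chain isotype were IgM, 25 of 25 in CD and 24 of 24 in HFD. Class-switched contigs made up 3.69% of the CD and 1.66% of the HFD reference, and 0 of 25 and 0 of 24 allow up to 12% and 12.5% (a limit of 3 counts of the total, here and at every share of 0), so a lack of switched cells was not detectable at this depth. Lambda light chains were carried by 3 of 23 in CD (13.04%, reference 12.8%) and 1 of 19 in HFD (5.26%, reference 10.7%).

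The IGHV11-2/IGKV14-126 pair was carried by 5 of 19 HFD cycling barcodes, 26.3% (9.15 to 51.2), against 9.90% of the HFD reference. The difference of 16.4 points (1.85 to 38.9) had an interval above 0. It was 7.71 points (-7.24 to 30.4) against reference barcodes between the quartiles of the depth of the cycling ones, an interval that held 0. It was 7.96 points (-2.11 to 25.7, 5 of 28) with 2 or more cycle UMIs in place of 3. When the macrophage and T cell gate genes were held at 0 it was 9.89 points (-6.60 to 52.4, 1 of 5). With 5 or more cycle UMIs it was 19.5 points (3.33 to 43.3), and after thinning 24.3 (4.85 to 49.8). With each clone counted once, chosen after seeing the data, it was 18.8 points (5.79 to 43.95). The pair was then carried by 19 of 1529 reference clones, against 211 of 2132 reference barcodes. Large clones enter the cycling side more readily, so this count favours a positive difference and cannot decide the question. The 2 cycling barcodes of the clone of 3, part of the 5, held 2 and 7 UMIs of the T cell list. Both had 3.83% mitochondrial UMIs, and whether they are separate cells cannot be told apart. The other phosphatidylcholine-type pair, IGHV12-3/IGKV4-91, was carried by 0 of 19 HFD cycling barcodes, which allows up to 15.8%, against 6.33% of the reference.

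In CD the values lay the other way round, within counting error. IGHV11-2/IGKV14-126 was found in 0 of 23 cycling barcodes, which allows up to 13.04%, against 7.08% of the CD reference (difference -7.08 points, -7.86 to 7.25). IGHV12-3/IGKV4-91 was found in 2 of 23, 8.70% (1.07 to 28.0), against 3.52% (difference 5.18 points, -1.13 to 23.3). Read the other way, 5 of 229 HFD barcodes with IGHV11-2/IGKV14-126 were cycling, 2.18% (0.713 to 5.02), against 0 of 328 in CD, which allows up to 0.915%. Whether the diets differ in this was not tested, since each has 1 library. The HFD barcodes with this pair were also deeper, with 8074 UMIs at the median against 5708 in CD.

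IGHV1-55/IGKV12-89 was the next pair of HFD, in 3 of 19 cycling barcodes, 15.8%, against 2.49% of the reference (difference 13.3 points, 3.01 to 35.1). These 3 came from clones of 31 and 20 barcodes, with 2 and 1 cycling. In CD the pair was carried by 0 of 23 cycling barcodes and 0.726% of the reference. In CD, IGHV12-3 heavy chains with any light chain made up 6 of 23 cycling barcodes, 26.1% (10.2 to 48.4), against 3.91%, and 4 of these 6 belonged to the IGHV12-3/IGKV4-57-1 clone.

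A B cell usually yields 1 heavy and 1 light contig, and the other barcodes were counted too. A heavy contig was missing from 12.1% of CD and 17.2% of HFD cycling barcodes, against 6.20% and 4.68%; the HFD difference of 12.6 points had an interval of 2.88 to 29.9. Heavy contigs numbered 2 or more in 12.1% of CD cycling barcodes (reference 8.16%) and in 0 of 29 in HFD (reference 4.39%). Light contigs numbered 2 or more in 15.2% and 17.2%, against 17.0% and 15.97%, which is within counting error.

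**Figure D2:**
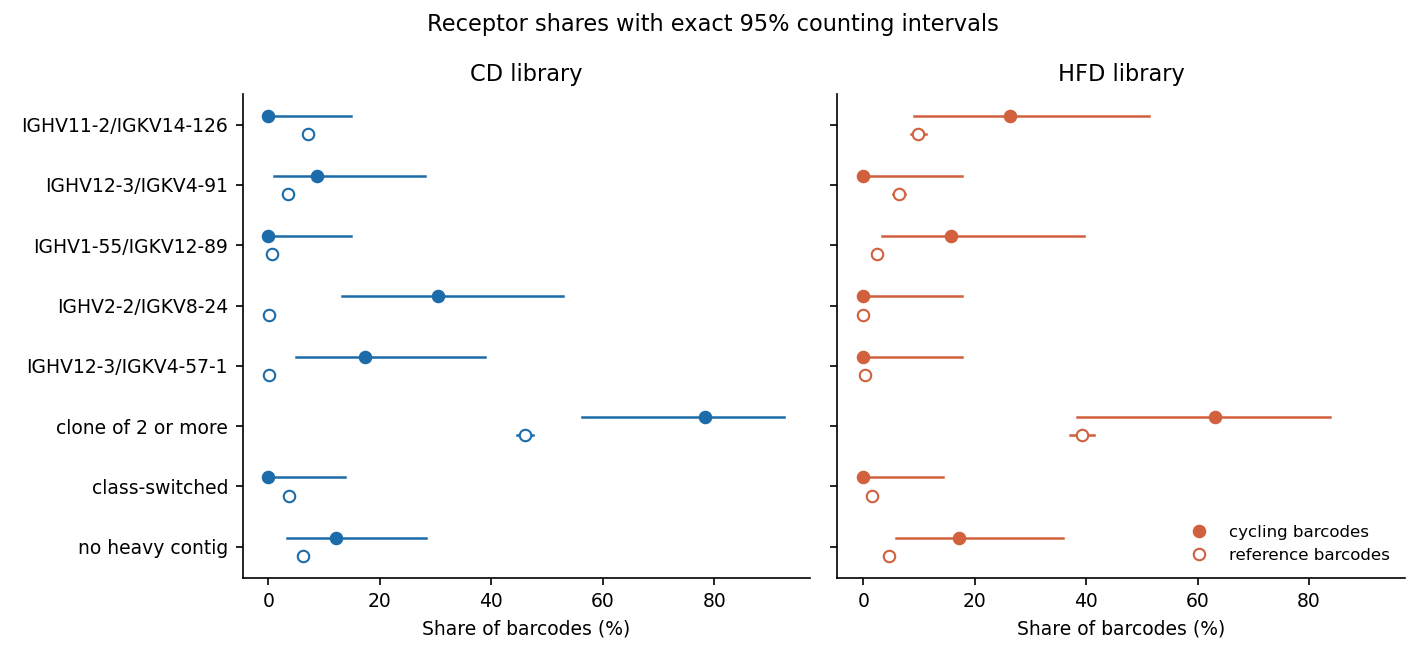
Share of barcodes (horizontal, %) with each named V pair, in a clone of 2 or more, class-switched or without a heavy contig, for cycling (filled) and reference (open) B barcodes of each library; lines are exact 95% binomial intervals. The HFD cycling barcodes sit at 26.3% for IGHV11-2/IGKV14-126 and the CD ones at 0%, while clones of 2 or more hold 78.3% of CD and 63.2% of HFD cycling barcodes.

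Were cycling B cells members of expanded clones? Clones of 2 or more barcodes held 18 of 23 CD cycling barcodes, 78.3% (56.3 to 92.5), against 46.1% of the reference, a difference of 32.2 points (11.9 to 44.3). In HFD they held 12 of 19, 63.2% (38.4 to 83.7), against 39.3%, a difference of 23.9 points (1.68 to 41.7). The 23 CD barcodes fell into 12 clones and the 19 HFD barcodes into 15. 4 clones of each library had 2 or more cycling barcodes, holding 15 barcodes in CD and 8 in HFD.

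Each barcode was counted separately here, and whether barcodes of a clone are separate cells cannot be told apart from the deposited files. With each clone counted once, chosen after seeing the data, the differences were 36.3 points (9.84 to 58.7) in CD and 38.0 (14.7 to 59.95) in HFD. Clones of 2 or more were then only 694 of 3145 reference clones in CD and 234 of 1529 in HFD. A larger clone has more barcodes that can be cycling, so this count favours a positive difference and cannot decide the question. Without the 2 CD clones of 3 or more cycling barcodes, the CD difference was 12.3 points (-14.1 to 34.7). When a barcode counted only if its clone also held a reference barcode, chosen after seeing the data, 7 of 23 CD barcodes counted and the difference turned to -15.3 points (-30.2 to 5.22); in HFD 10 of 19 counted and it was 14.3 points (-6.72 to 34.5). The depth-matched reference gave 44.6 points in CD (24.3 to 56.8) and 12 in HFD (-10.5 to 30.2). With 2 or more cycle UMIs in place of 3 the values were 15.2 (-2.33 to 30.2) and 10.7 (-6.75 to 28.2), and with macrophage and T cell gate genes at 0 they were 18.5 (-10.4 to 44.2) and 7.99 (-20.4 to 45.01). Of these 6 intervals only that of the depth-matched CD value lay above 0. Other settings gave intervals above 0 in both libraries. After thinning the differences were 49.99 points (24.3 to 60.4) in CD and 48.4 (22.6 to 58.8) in HFD. With 5 or more cycle UMIs they were 42.8 (21.1 to 50.9) and 31.3 (7.52 to 47.6). Stricter limits on gene number and mitochondrial share gave 32.4 (10.5 to 46.3) and 28.7 (6.45 to 46.5). Clones defined by the heavy chain alone gave 30.9 (10.7 to 43.1) and 23.2 (1.025 to 41.05).

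By clone size, cycling barcodes made up 0.199% of CD barcodes in clones of 1, 0.345% in clones of 2 to 4, 3.11% in clones of 5 to 9 and 1.23% in clones of 10 or more. The HFD shares were 0.506%, 0.903%, 2.02% and 1.68%. Shares were thus higher in the larger size classes of each library, but all 7 CD cycling barcodes of the 5 to 9 class were the IGHV2-2/IGKV8-24 clone and 4 of the 6 in the class of 10 or more were the IGHV12-3/IGKV4-57-1 clone. Median depth in these classes was 5155, 3446, 4270 and 5478 UMIs in CD and 5696, 4305, 6704 and 8623 in HFD. A deeper barcode reaches 3 cycle UMIs more readily, and the part of depth in these shares was not tested. The 6 HFD cycling barcodes of the class of 10 or more were spread over clones of 57, 31, 26 and 20 barcodes. The receptor of 1 cycling clone, the HFD clone of 57, was seen under both diets and was carried by 158 barcodes in CD. Since the diets were fed to separate mice, barcodes with the same receptor sequence need not descend from 1 cell. The clone counts here do not separate such cases.

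**Figure D3:**
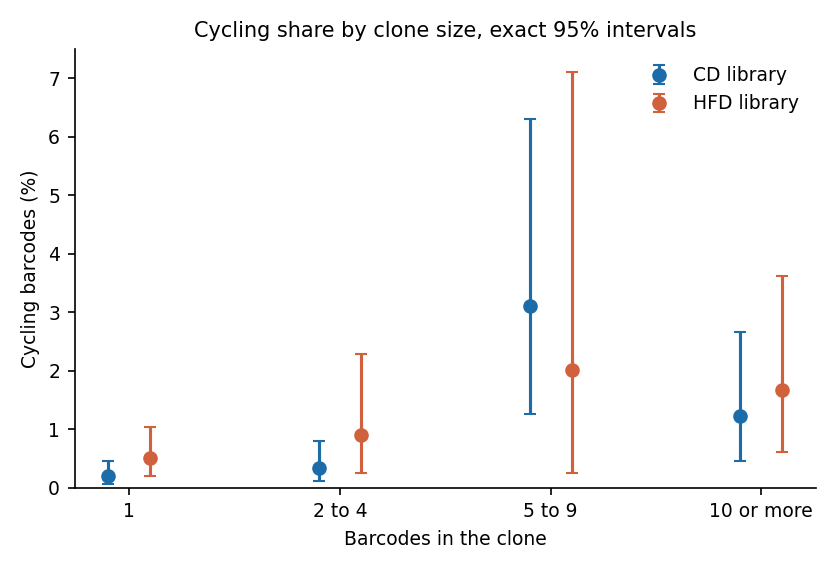
Share of barcodes that were cycling (vertical, %) by the number of barcodes in their clone (horizontal), with exact 95% binomial intervals, for CD and HFD. The 7 cycling barcodes of the CD class of 5 to 9, at 3.11%, come from 1 clone; intervals of the HFD classes overlap.

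The 2 CD clones were followed barcode by barcode. All 7 barcodes with the IGHV2-2/IGKV8-24 receptor sequence printed first were cycling, with no barcode at 0, 1 or 2 UMIs of the cycle genes. Their depth spanned 2631 to 7531 UMIs and their mitochondrial share 3.25% to 3.87%. H2ac15, a replication-dependent histone H2A gene, was found in 6 of the 7 with 56 UMIs, in 3 of the other 26 CD cycling barcodes with 41, and in 1.53% of the CD reference. Their expression libraries carried 130 UMIs of Ighv2-2 in 7 of 7, against 1 UMI in the other 26, so the matrix and the contigs named the same heavy chain gene. T cell markers came to at most 2 UMIs in any of the 7. Whether they are 7 separate cells cannot be told apart from the deposited files, and each counts as 1 member in every count and share given here.

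The IGHV12-3/IGKV4-57-1 clone held 10 barcodes, 4 cycling and 6 in the reference. The 4 cycling barcodes each carried T cell transcripts, with 5 to 18 UMIs of the T cell list. On the 6 T cell genes of the gate alternatives they had 5 to 16 UMIs, while the other 6 barcodes had at most 1. Cd3g, a subunit of the T cell receptor complex, was found in 4 of 4 (15 UMIs) and in 1 of 6 (1 UMI). Thy1, a T cell surface protein, was found in 4 of 4 (15 UMIs) and 0 of 6, and the chemokine receptor Cxcr6 in 4 of 4 (10 UMIs) and 0 of 6. The T cell receptor segments Trbv5 and Trav3-3 were each found in 3 of the 4, against 0.382% and 0.0995% of CD reference barcodes.

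The same 4 barcodes lay within 3.42% to 3.63% mitochondrial UMIs, against 3.97% to 6.67% in the other 6. Ighv12-3 transcripts were found in 4 of 4 (37 UMIs) and in 6 of 6 (130 UMIs). Stmn1, a microtubule regulator of dividing cells, was found in 4 of 4 with 27 UMIs and in 0 of 6. These barcodes thus held receptor transcripts of a B cell and of a T cell together, and which of the 2 carried the cycle transcripts was not tested. Whether they are 4 separate cells cannot be told apart either; without both clones 22 CD members remained. A further CD barcode, IGHV1-53/IGKV4-57, held 71 T cell UMIs, and a CD barcode without a heavy contig held 44 macrophage UMIs.

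What was expressed along with the 6 cycle genes? UMIs were summed over cycling and over reference barcodes of each library and compared as log2 ratios of CPM. The cells were chosen on the cycle genes, so these ratios describe the choice and support nothing further. Of 3922 genes that passed the filter on low counts in both libraries (30 CPM or more in the higher sum, 50 or more UMIs), 280 (7.14%) were at least 1 log2 unit higher in cycling barcodes of both libraries and 70 (1.78%) at least 1 lower. In single libraries 10.9% (CD) and 10.7% (HFD) were higher and 4.64% and 5.88% lower by that much. Ratios above 0 in both were found for 43.2% of genes and below 0 in both for 33.0%. The median gene stood at 0.15 in CD and 0.08 in HFD.

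The genes with the highest ratios in both libraries were cycle genes outside the rule. Pclaf, a PCNA-binding factor of replication forks, stood at 540 CPM against 0.188 in CD and at 752 against 0.931 in HFD, and was found in 29 of 33 and 26 of 29 cycling barcodes. Ccna2, the cyclin of S phase and mitotic entry, had log2 ratios of 10.54 and 8.43, and the kinetochore gene Spc24 of 8.70 and 8.24. Stmn1 reached 1093 CPM against 10.4 in CD and 1101 against 11.3 in HFD. The others of the 15 highest were Cdca3, Nusap1, Ube2c, Cenpm, Kif22, Prc1, Tcf19, Uhrf1, Kif23, Cks1b and Tpx2. The smaller of their 2 ratios ranged down to 5.75, in Tpx2.

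List genes were counted at 20 or more UMIs, a lower bar than for the 3922 genes, so list counts and shares of all genes are not on the same filter. By list, replication genes were at least 1 higher in both libraries in 40 of 42 measured genes, with medians of 2.90 in CD and 3.001 in HFD. Clspn, a checkpoint mediator at the fork, stood at 9.88 and 7.52, the helicase loader Cdc6 at 6.37 and 7.90, and the helicase subunit Cdc45 at 6.30 and 6.86. Mitosis genes passed in 42 of 44, with medians of 5.61 and 6.02. Among them the centromere gene Cenpf stood at 9.92 and 8.32 and the spindle motor Kif11 at 8.92 and 8.14. The mitosis medians lay above the replication medians in both libraries.

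Histone and nucleotide synthesis genes had lower medians than the mitosis list. Replication-dependent histones passed in 23 of 26 measured genes of a list of 48, with medians of 2.78 and 2.95; the H2A gene H2ac4 stood at 5.16 and 5.70 and the linker histone H1f5 at 4.84 and 5.56. Nucleotide synthesis genes passed in 11 of 24, with medians of 1.24 and 1.06. They included thymidylate synthase Tyms (4.98 and 5.41), thymidine kinase Tk1 (5.39 and 4.71) and the dUTPase Dut (3.05 and 3.55). Genes of the same list differed widely, since the rest of the 24 were under 1 in at least 1 library.

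Regulators of cycle entry were mixed. Of 24 genes, 7 passed upward in both libraries and 1 downward, with medians of 0.78 in CD and 0.20 in HFD. The pocket protein Rbl1 stood at 2.39 and 2.13, the kinase Cdk2 at 1.76 and 1.64 and the kinase Cdk4 at 1.27 and 1.36. The transcription factor E2f3 stood at 1.34 in CD, with an interval of -0.12 to 2.49, and at 2.56 in HFD. The other 3 upward genes were the cyclin-dependent kinase inhibitors Cdkn1a, Cdkn2a and Cdkn2c. The downward gene was Btg1, an antiproliferative factor of resting lymphocytes, at -1.22 and -1.56; these 4 are named after their values were seen.

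Lists of energy metabolism had fewer genes past 1. Glycolysis genes passed upward in 2 of 15, the phosphoglycerate kinase Pgk1 (1.17 and 1.14) and Gapdh (1.04 and 1.07), and Pkm stood at 1.08 and 0.78. None of 29 nuclear respiratory chain genes passed in both libraries, but 26 were above 0 in both, with medians of 0.48 and 0.43 beside the 43.2% of all genes. The complex III subunit Uqcr10 stood at 0.91 and 0.93 and cytochrome c, Cycs, at 0.66 and 0.66. Heat shock genes were above 0 in both libraries in 10 of 11, with medians of 0.53 and 0.67; Hsp90aa1 passed at 1.19 and 1.30 and Hspa8 stood at 0.90 and 0.74. None of 18 unfolded protein response genes passed.

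The B-2 list lay below 0 in cycling barcodes. Of 10 B-2 markers, 3 passed downward in both libraries and 9 were below 0 in both, beside 1.78% and 33.0% of all genes, with medians of -0.67 in CD and -1.03 in HFD. Against the depth-matched reference the medians were -0.46 and -0.51. Fcer2a (CD23), the low-affinity IgE receptor of follicular B cells, was found in 4 of 33 CD and 5 of 29 HFD cycling barcodes, at 20.8 CPM against 100.3 and 26.2 against 114. The lymph node homing receptor Ccr7 stood at -1.27 and -1.999 and the complement regulator Cd55 at -1.25 and -1.54. Ighd, the IgD constant region, stood at -0.84 in CD and -2.64 in HFD.

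B-1 markers had no common direction. Of 13, 1 passed upward and 1 downward in both libraries, with medians of 0.34 and 0.06. The one upward was the transcription factor Bhlhe40, with 5 and 11 UMIs and a CD interval that held 0 (1.09, -0.55 to 2.33; HFD 1.97). The one downward was Pdcd1lg2 (PD-L2), at -1.08 and -1.81 with 6 and 4 UMIs. Zbtb32, a repressor of B-1 cells, was found in 23 of 33 and 24 of 29 cycling barcodes, and Bhlhe41, a regulator of B-1a cells, in 11 and 13. These counts come from barcodes deeper than the reference and have no reference share beside them, so they show detection only.

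Summed per barcode, the B-1 list exceeded the B-2 list in 9 of 33 CD cycling barcodes, 27.3% (13.3 to 45.5), against 16.4% of the reference, and in 20 of 29 HFD ones, 69.0% (49.2 to 84.7), against 34.6%. Deep reference barcodes had higher shares than the whole reference: between the quartiles of the depth of the cycling ones the share was 19.4% in CD and 57.1% in HFD. The intervals of the cycling shares held these depth-matched values in both libraries.

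The MHC class II list, which serves antigen presentation to T cells, also lay below 0. All 11 measured MHC class II genes were below 0 in both libraries, beside 33.0% of all genes, with medians of -0.82 and -0.62, and 2 passed. These were Ciita, the master activator of the locus (-1.18 and -1.61), and H2-Ob, a chain of the peptide-loading modulator (-1.17 and -1.58). The class II chain H2-Aa stood at 2594 CPM against 4469 in CD and at 2667 against 4760 in HFD, detected in every cycling barcode. Of 8 pan-B genes 6 were below 0 in both, none by 1, among them Cd79a at -0.42 and -0.53, while Ms4a1 stood at 0.07 and -0.02. In the receptor pathway 0 of 20 genes passed in either direction in both libraries and 11 were below 0.

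The 15 genes with the lowest ratios in both libraries had few UMIs in cycling barcodes. Hbp1, a repressor of cycle entry, had 1 UMI in CD and 4 in HFD (-3.81 and -1.99). Txnip, an inhibitor of thioredoxin and glucose uptake, stood at 88.3 CPM against 270.4 in CD and at 87.2 against 351 in HFD. Zfp36, which destabilises cytokine mRNA, stood at -1.78 and -1.48, and Dgka, a diacylglycerol kinase, at -1.38 and -2.27. The others were Rsbn1, Fcer2a, Tcp11l2, Gpr171, Gm45552, Ube2f, Sfn, Lrrk2, Phf1, Trim7 and Cacna1i, and all of these but Tcp11l2 had 16 or fewer UMIs in each cycling sum. Against depth-matched reference barcodes 36 of the 70 lower genes passed, and 70 of the 70 kept their sign in both libraries; after thinning to 3000 UMIs 17 of the 70 passed and 46 kept their sign.

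**Figure D4:**
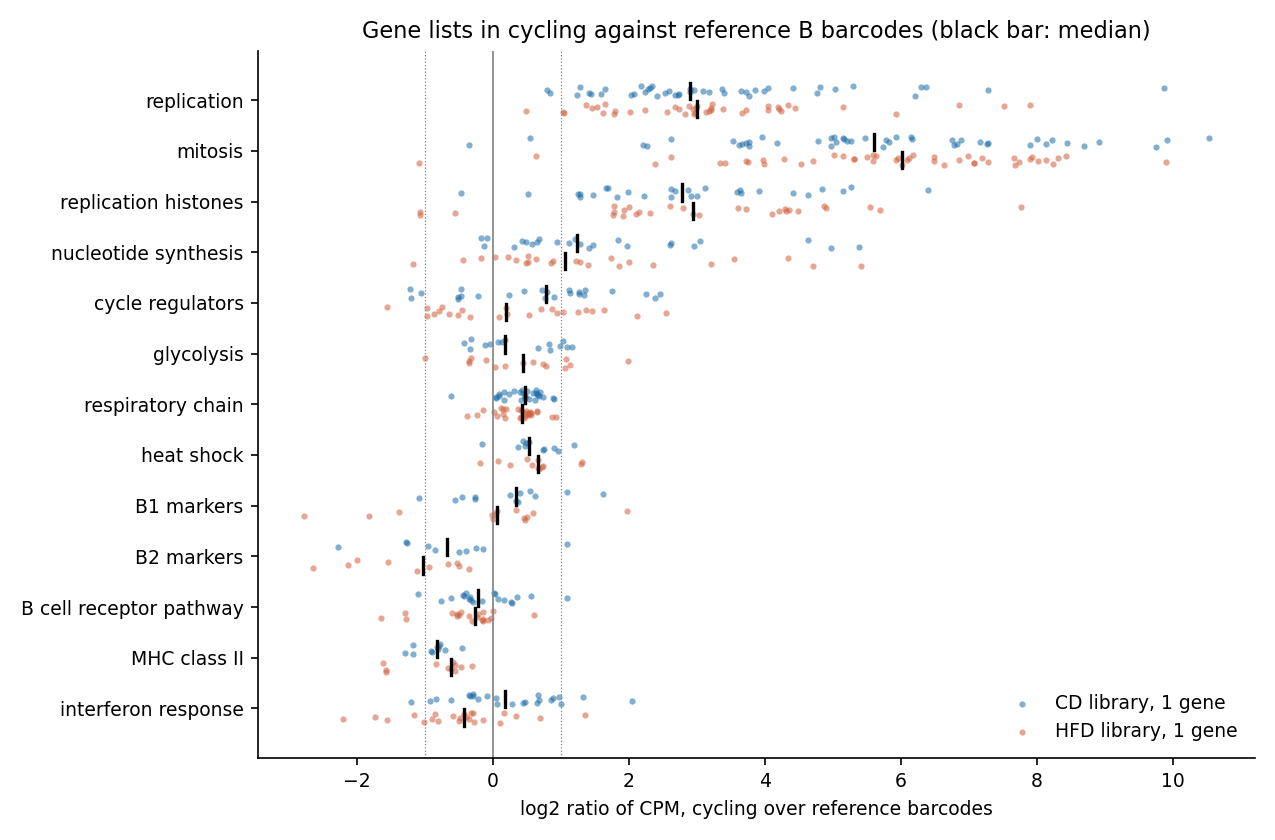
Log2 ratio of CPM in cycling over reference B barcodes (horizontal) for each measured gene of 13 lists (vertical), CD in blue and HFD in orange; black bars are list medians and dotted lines mark -1 and 1. Replication, mitosis and histone genes lie far to the right in both libraries, and B-2 and MHC class II genes lie mostly to the left of 0.

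Did cycling B barcodes differ between the diets? The rule did not use this comparison, but each side is the sum of 1 library (385130 UMIs from 33 CD and 458879 from 29 HFD barcodes). Of 2039 genes that passed the filter, 26 (1.28%) were at least 1 log2 unit higher in HFD and 25 (1.23%) at least 1 lower, and 46.8% were above 0. Among reference barcodes 0.317% and 0.237% of 3791 genes passed. The reference sums are many times deeper, so the shares are not at matched precision. Of the 26 higher genes 5, and of the 25 lower genes 1, still passed when barcodes with any macrophage or T cell UMI of the gate genes were left out (17 CD and 11 HFD barcodes remained), where 25 and 24 kept their sign; fewer genes then met the filter. Of the 10 highest and the 10 lowest genes named, 6 and 6 stayed past 1 when those barcodes were left out, 7 and 5 after thinning to 3000 UMIs, and 8 and 8 with only 1 heavy and 1 light contig.

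Some genes were higher in HFD among cycling and among reference barcodes alike. Tppp3, a tubulin polymerisation protein on the B-1 list, stood at 83.1 CPM in CD and 305 in HFD (1.88, 1.31 to 2.48), beside 65.8 and 304 in the reference (2.21). Crip2, a LIM-domain protein, stood at 64.9 and 159 (1.29; reference 1.09), and at 0.57 with only 1 heavy and 1 light contig. The histone gene H2ac24 stood at 530 and 1338 (1.34; reference 0.95), and Gm43305 at 125 and 364 (1.55; reference 1.16). In these 4 the reference differed in the same direction, by 0.95 or more. Without barcodes holding macrophage or T cell gate genes H2ac24 stood at 0.78 and Gm43305 at 0.69.

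Of the other higher genes, H2-Q4, Bptf and Anxa7 lay near 0 in the reference, while Cdk8 and Abhd17b were higher there too, by less. The MHC class I gene H2-Q4 had 32 UMIs in 16 of 33 CD barcodes and 109 in 26 of 29 HFD barcodes (1.51, 0.94 to 2.13; reference 0.11). Bptf, a subunit of the nucleosome remodelling factor NURF, had 13 UMIs in 11 and 43 in 22 barcodes (1.47, 0.55 to 2.49; reference -0.04), and stood at -1.79 (-7.50 to 1.85) after thinning. Anxa7, a calcium-dependent membrane-binding protein, had 17 and 50 UMIs (1.30; reference 0.06). The mediator kinase gene Cdk8 was found in every cycling barcode of both libraries, at 1444 and 3676 CPM (1.35; reference 0.63), and Abhd17b, a depalmitoylase, stood at 1.30 (reference 0.69). With only 1 heavy and 1 light contig Cdk8 stood at 0.83, and Abhd17b stood at 0.71 (-0.74 to 2.23) without barcodes holding macrophage or T cell gate genes. Of the 45 UMIs of ENSMUSG00000079190 in HFD (2.24), 46.7% came from 1 barcode, and without barcodes holding macrophage or T cell gate genes it stood at 0.45.

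The lower genes included several whose UMIs lay in a few CD barcodes. Retnla (Fizz1), a product of alternatively activated macrophages, had 48 UMIs in CD and 3 in HFD, and 44 of the 48 came from the CD barcode with 44 macrophage-list UMIs. Id2, an inhibitor of E-proteins that is high in T and NK cells, had 53 and 12 UMIs (-2.40, and -0.94 after thinning), and 40 of the 53 lay in the 5 CD barcodes with 5 or more T cell UMIs. Ms4a4b, a T cell membrane protein, had 41 and 18 (-1.44), with 39 of the 41 in the same 5 barcodes. Without the 2 CD clones Ms4a4b stood at -0.40.

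Other lower genes were spread over the barcodes. Klf6, an immediate-response transcription factor, had 65 UMIs in 28 of 33 CD barcodes and 17 in 10 of 29 HFD barcodes (-2.19, -3.05 to -1.40; reference -0.74). Rsrp1, a splicing-related protein, had 80 UMIs in 26 and 26 in 14 barcodes (-1.87; reference -1.20). Cd69, an early activation marker chosen from the activation list, had 33 UMIs in 18 and 8 in 7 barcodes (-2.30; reference -1.49). The remaining named genes were Rbm38, Exosc5, Arhgap17, Gm10076 and Eapp, between -1.36 and -1.25, with reference values between -0.78 and 0.11.

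The B-1 and B-2 lists lay on opposite sides of 0. B-1 markers were higher in HFD cycling barcodes in 8 of 9 measured genes (median 0.71; reference 0.46 over 13), and 4 passed. Of the 5 that met the filter of the 2039 genes, 3 passed, beside 1.28% of all genes. Among the 4, the tetraspanin Cd9 had 29 UMIs in 18 of 33 CD and 80 in 24 of 29 HFD barcodes (1.21), and Spn (CD43), an adhesion-modulating sialoprotein, 5 and 19 UMIs (1.67, 0.20 to 3.45). The other 2 that passed were Tppp3 and Plscr1. B-2 markers were lower in 8 of 9 (median -0.73), and 3 passed, whereas the reference median was -0.0032 over 10 genes. Of the 6 that met the filter of the 2039 genes, 2 passed, beside 1.23% of all genes. The B-2 median was -0.39 without the 2 CD clones and -0.51 without barcodes holding macrophage or T cell gate genes. All reference values here are of the whole, shallower reference. B-1 genes made up 40.3% of the UMIs of both lists in CD and 62.9% in HFD cycling barcodes. The whole reference had 26.0% and 40.1%, and the depth-matched reference 29.8% and 53.7%, so a shift between the diets was not particular to cycling barcodes. Diet ratios of lists and single genes are not given for the depth-matched reference.

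Ighd was the B-2 gene with the lowest value. It had 46 UMIs in 20 of 33 CD barcodes (at most 9 in a barcode) and 17 in 14 of 29 HFD barcodes (at most 2), a ratio of -1.69 (-2.58 to -0.86), against 0.11 in the reference. The complement receptor Cr2 stood at -1.65 (reference -0.04), with 44.8% of its 29 CD UMIs in 1 barcode, and at -0.53 with only 1 heavy and 1 light contig. Ccr7 stood at -1.19 (reference -0.47), and at -0.26 (-1.89 to 1.28) without barcodes holding macrophage or T cell gate genes. Under that setting Ighd stood at -1.94 (-3.36 to -0.73), and after thinning to 3000 UMIs at -0.62 (-3.39 to 1.95).

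Cycle genes differed little by list. Of 41 replication genes 26 were above 0 (median 0.16), and of 48 mitosis genes 38 were (median 0.27), beside 46.8% of all genes. The mitosis median was -0.20 without barcodes holding macrophage or T cell gate genes and -0.10 after thinning. Racgap1, a regulator of cytokinesis, stood at 1.05 and the condensin subunit Ncapd2 at 0.95, with 37.2% of the HFD UMIs of Ncapd2 in 1 barcode, while the replication protein A subunit Rpa2 stood at -1.12 (53 and 29 UMIs). Without those barcodes Racgap1 stood at 0.43 (-0.44 to 1.31) and Ncapd2 at -0.20 (-1.13 to 0.71). Replication histones had a median of 0.56, which turned to -0.50 after thinning and to -0.15 with barcodes weighted equally. H2bc11 stood at 2.18 on 5 and 27 UMIs, and H2ac15 at -1.15, with 56 of its 97 CD UMIs in the IGHV2-2/IGKV8-24 clone; without the 2 CD clones H2ac15 stood at -0.14 (-0.76 to 0.48). The cyclin Ccnd2 stood at -0.77 (reference 0.40) and E2f3 at 1.62.

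The remaining lists are given by their counts. Of all genes, 46.8% were above 0 in HFD against CD cycling barcodes. Heat shock genes were below 0 in 11 of 11 (median -0.45), as in 13 of 14 in the reference (median -0.58); the chaperone Hspa8 stood at 2345 CPM in CD and 1425 in HFD (reference 1260 and 854), and the co-chaperone Dnaja1 at -1.25 (reference -0.80). Without barcodes holding macrophage or T cell gate genes the heat shock median was -0.027 and Dnaja1 stood at -0.0095 (-0.94 to 0.91). Of 12 interferon response genes 3 were above 0 (median -0.56), against 20 of 29 in the reference (median 0.10), where 52.0% of all genes were above 0. The interferon median was -0.10 without the 2 CD clones and -0.29 without barcodes holding macrophage or T cell gate genes. Ifi27l2a, an interferon-induced mitochondrial protein, stood at 958 and 506 CPM in cycling barcodes (-0.92, and -0.55 without those barcodes) and at 383 and 399 in the reference. Unfolded protein response genes were below 0 in 14 of 16 (median -0.39; reference -0.26, 17 of 18 below 0). Igkc, the kappa constant region, stood at 841 and 1451 CPM (0.79; reference 0.17).

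**Figure D5:**
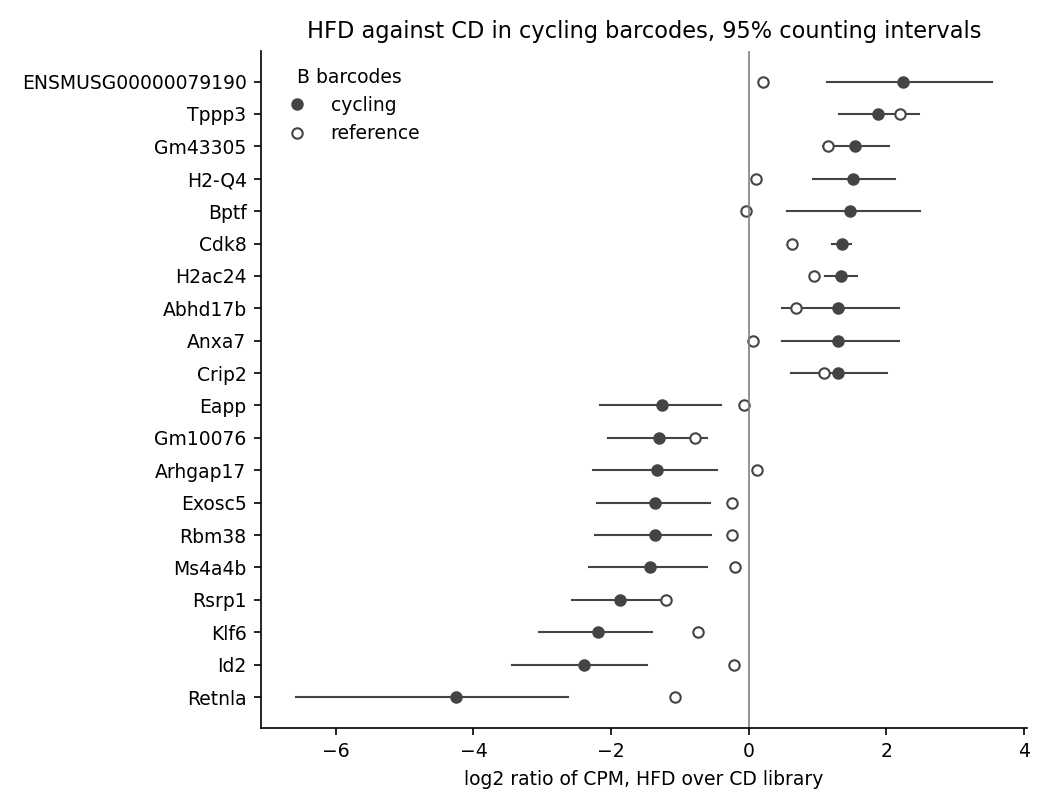
Log2 ratio of CPM in HFD over CD (horizontal) for the 10 highest and 10 lowest genes among cycling B barcodes (filled, with 95% counting intervals) and the same ratio among reference B barcodes (open). Tppp3, Gm43305, Crip2 and H2ac24 lie to the right in both groups, while H2-Q4, Bptf and Anxa7 lie near 0 in the reference.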

How the data were processed

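The authors deposited raw UMI counts per gene and barcode (10x matrices) and receptor contig tables, per the file headers. The matrix headers name Cell Ranger 8.0.1, whereas Cell Ranger 6.0.1, Seurat 4.3.0 and the build mm39 stand in the submitters' processing notes; the labels name a 3' kit, and alignment settings are not given in the sources used here. The 2 matrices held 73549582 (CD) and 57630074 (HFD) UMIs. Barcodes were joined to contigs within a diet, filtered as described, and their counts summed per library and group (Python 3.11.15, numpy 2.4.6, scipy 1.17.1). Ratios are log2 of CPM; a sum at 0 was set to 3 counts, and gene intervals are exact conditional 95% ones. Shares above 0 have exact Clopper-Pearson intervals, shares of 0 a limit of 3 counts of the total, and differences of shares have Newcombe intervals. With 1 library per diet nothing was tested.

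Members and gene lists were chosen with earlier results of these data known. Counts of genes leave out receptor segments, ribosomal proteins and mitochondrial or sex-linked genes. Named genes were the 15 highest and lowest by the smaller ratio of the 2 libraries, the 10 highest and lowest between diets found in 10% or more of the higher group's barcodes, and up to 4 genes per list with 20 or more UMIs, of which the text prints part. Named V pairs were the phosphatidylcholine-type pairs and the 5 most frequent. No doublet caller was run. Alternatives changed the cycle threshold, filters, depth, contig number, weights and clone definition. Gene counting of cycling against reference sums was tested on simulated counts. The simulation had no variation between barcodes beyond counting error, changed only well expressed genes and left out the comparison of the diets.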

Additional observations from a re-analysis of the deposited data

Results flagged for a closer look

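Some results lay in opposite directions in the CD and HFD libraries; none of these differences between the libraries was tested, since each diet has 1 library. The IGHV11-2/IGKV14-126 share of cycling minus reference barcodes was -7.08 points in CD and 16.4 points in HFD. The IGHV12-3/IGKV4-91 share was 5.18 points in CD and -6.33 points in HFD. On the log2 scale of cycling over reference barcodes, Cdk8 stood at -0.63 in CD and 0.087 in HFD, H2-Q4 at -0.54 and 0.87, and Retnla at 0.62 and -2.55. Of the 48 Retnla UMIs in CD cycling barcodes, 44 came from 1 barcode.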

How the results depend on the processing

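The share of the gate was 0.355% in CD without the 2 CD clones and 1.44% in HFD with 2 or more cycle UMIs. The IGHV11-2/IGKV14-126 difference in CD was -9.60 points and the IGHV12-3/IGKV4-91 difference in HFD -12.6 against the depth-matched reference, and IGHV12-3/IGKV4-91 in CD was -4.02 after thinning. Clones of 2 or more differed by 49.99 (CD) and 48.4 (HFD) points after thinning, by 44.6 in CD against the depth-matched reference, and by -15.3 in CD when the clone had to hold a reference barcode. Genes higher in cycling barcodes of both libraries numbered 844 without the filter on low counts. Genes lower in both numbered 40 with 2 or more cycle UMIs, 121 with macrophage and T cell genes at 0, 118 after thinning, 36 against the depth-matched reference and 249 without the filter. Genes higher in HFD numbered 16 with macrophage and T cell genes at 0, 8 after thinning and 899 without the filter; genes lower in HFD numbered 47 with 2 or more cycle UMIs, 3 after thinning, 39 with equal weights and 1070 without the filter. After thinning Arhgap17 stood at 0.12, Bptf at -1.79 and Retnla at 3.12 between the diets, and the macrophage list median in HFD at 1.09. The gate was applied again to the thinned counts, so the thinned values rest on another set of barcodes as well as on lower depth. The histone median between the diets was -0.48 with macrophage and T cell genes at 0, -0.50 after thinning and -0.15 with equal weights. The causes were not tested. The cycling sums hold 385130 and 458879 UMIs and receptor shares 23 and 19 barcodes, from 1 library per diet. No paired analysis was possible because each group is 1 library.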
